A study of Mus musculus with 8 samples.

Results

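DNA replication and S phase genes encode the machinery that copies the genome. The set described here is a fixed list of 46 mouse genes for origin licensing, helicase activation, DNA synthesis, nucleotide supply, chromatin copying and fork protection, taken by gene symbol. The rule uses no measured value, although the list was drawn up with earlier results of these data known. Of these, 43 were among the 22520 genes of the deposited table, and Cdt1, Gins2 and Dut were not analysed here. The libraries came from cells of C57BL/6 mice at postnatal day 14, which the study isolated as liver ECs and the labels call liver microvesicular cells. WT libraries (n = 4) were from LRP1 f/f; Cdh5-CreER-/- littermates and LRP1 eKO libraries (n = 4) from LRP1 f/f; Cdh5-CreER+/- mice. Both groups carried the floxed Lrp1 alleles, and CreER, driven by the Cdh5 promoter of endothelial cells, was present in the LRP1 eKO group alone, so that Lrp1 loss and CreER cannot be told apart. Cells were selected with a PECAM-1 antibody on beads. The markers do not bear out a pure endothelial population. All 10 pan-endothelial markers together summed to 49.1 to 51.7 in WT and 58.1 to 81.8 in LRP1 eKO libraries. The 10 hepatocyte markers summed to 1450 to 1514 and 602 to 886. The 10 stellate cell and fibroblast markers had the largest sums of the lists examined, at 2031 to 2344 and 1774 to 2236. Of the endothelial markers, Tek and Erg had signals under 1 in every library. Pecam1, the selection antigen, and Cdh5 had means of 2.09 and 1.86 in WT and 3.02 and 3.70 in LRP1 eKO. The remaining markers of that list are not given singly. The material is therefore called liver cell preparations here, and no value below is assigned to a cell type. No source used here ties a library to 1 animal, so p-values measure the spread between these libraries, which may be technical. The comparison asked how the genes that copy DNA differed in liver cell preparations of mice whose endothelial cells were targeted to lose LRP1, an endocytic and signalling receptor.

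Before a cell enters S phase, the origin recognition complex, Cdc6 and Cdt1 load the ring of Mcm2 to Mcm7 onto DNA. In S phase, Cdc45 and the GINS complex turn that ring into an active helicase, primase and polymerases extend the strands, the sliding clamp Pcna holds the polymerases in place, and lagging strand fragments are trimmed and ligated. Most of these genes are transcribed in a wave near the start of S phase, in which E2F transcription factors take part, and quiescent endothelium expresses little of them. In bulk RNA, fewer replicating cells and less replication RNA in each cell cannot be told apart.

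Signals were quantile normalized by the authors, and differences are given as log2 fold changes of (signal + 1), LRP1 eKO minus WT, a scale on which changes at low signal come out too small. The test was limma over the 11391 genes that reached a signal of 1 in 4 or more of the 8 libraries, with Benjamini-Hochberg adjustment, and "called" means an adjusted p under 0.05. Of the 43 genes, 42 passed this filter and Brca2 did not. Fancd2 passed it only through the WT libraries, and the counts below include it. Lrp1 itself averaged 65.5 ± 13.3 in WT against 4.41 ± 1.65 in LRP1 eKO libraries (signal, SD, n = 4 each) (log2 fold change -3.66, limma adjusted p = 2.8e-06). Total signals lay between 484445 and 485947, since normalization fixed them, so that the depth of the libraries is unknown.

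The promoters of the set are shown first. Their letters describe the list and were not tested as a cause of the changes below. RefSeq promoter windows (GRCm38.p6, 250 bases before to 50 bases after an annotated start) were found for 36 of the 43 genes, 43 windows in all, with no entry for Fancd2, Gins1, Gins4, Mcm4, Pole, Prim2 and Rfc2. The letters searched were the E2F-type words TTTCCCGC, TTTCGCGC, TTTGCCGC and TTTGGCGC, on both strands, where matches may overlap. Of the 43 windows, 14 (32.6%) held at least 1 word, beside 2.26% of all 32851 windows. By gene, 14 of 36 (38.9%) held one, beside 2.6% of 27025 genes. The windows of the set had a median GC content of 58.3%, and all windows 52.7%. CCAAT was in 62.8% of the windows of the set and 37.4% of all windows, and TTTGAA, the cell cycle homology region word of many mitotic genes, in 11.6% and 17.9%.

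The stretches below run 5′ to 3′ on the strand of the gene, with the words in capitals. Mcm5 and Mcm6 were chosen as windows with more than 1 word, Mcm7, Cdc6 and Pola1 as windows of genes called lower, and Gins3 and Orc1 as windows of genes not called. Only words before the start are shown, and the Mcm7 window holds a further word after its start.
Mcm5, chr8:75109341-75109382, plus strand: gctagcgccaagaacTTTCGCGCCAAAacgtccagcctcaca
Mcm6, chr1:128359730-128359830, minus strand: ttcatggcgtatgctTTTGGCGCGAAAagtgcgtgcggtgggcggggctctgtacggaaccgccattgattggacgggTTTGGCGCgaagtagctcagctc
Mcm7, chr5:138172030-138172059, minus strand: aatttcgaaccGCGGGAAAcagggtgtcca
Cdc6, chr11:98908002-98908031, plus strand: gccggtggagaGCGGGAAAtcgcctggggt
Pola1, chrX:93632275-93632304, minus strand: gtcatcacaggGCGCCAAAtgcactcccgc
Gins3, chr8:95633503-95633540, plus strand: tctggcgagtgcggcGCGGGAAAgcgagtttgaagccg
Orc1, chr4:108579416-108579445, plus strand: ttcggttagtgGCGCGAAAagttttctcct
Overlapping words of opposite strands form the runs of 12 capitals in Mcm5 and Mcm6, and Mcm6 holds a further, separate word. The stretches of Mcm7, Cdc6, Pola1 and Orc1 lie inside the annotated extent of the gene, before a start that is not its outermost one. A match is a string of letters and not a measured binding site. Of 13 tested genes with a word, 11 were called lower, and the median log2 fold change was -0.40 (range -0.65 to -0.09). Of 22 without one, 18 were called lower, and the median was -0.41 (range -0.73 to 0.19). Both counts stand beside 22.2% of all genes tested. No test was made between genes with and without a word.

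Across the set, 41 of the 42 genes tested had a lower mean in LRP1 eKO than in WT libraries. In LRP1 eKO, 36 of them were downregulated (limma adjusted p under 0.05), beside 22.2% of all genes tested, and 1, E2f1, was called higher, beside 19.0%. The 5 genes not called were Orc1, Gins3, Rfc1, Rpa1 and Fen1. For 34 genes every LRP1 eKO library lay below every WT library, beside 22.5% of all genes tested, and for 1 gene every LRP1 eKO library lay above, beside 20.0%. The median log2 fold change of the 42 was -0.41, with a range from -0.73 to 0.19, and that of all genes tested was -0.01. On the signal scale the LRP1 eKO mean was a median of 72.7% of the WT mean, from 56.1% for Prim1 to 116% for E2f1. None of the 42 reached a 2-fold change by limma (0 lower and 0 higher), although 36 lower and 1 higher had an unadjusted p under 0.05. The share of all genes at that unadjusted threshold is not given here. Of all genes tested, 0.79% were lower and 0.869% higher past 2-fold with an adjusted p under 0.05. As a description of the libraries, the mean log2(signal + 1) of the 42 genes lay between 3.39 and 3.47 in WT and between 3.02 and 3.07 in LRP1 eKO libraries, and the groups did not overlap.

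**Figure D1:**
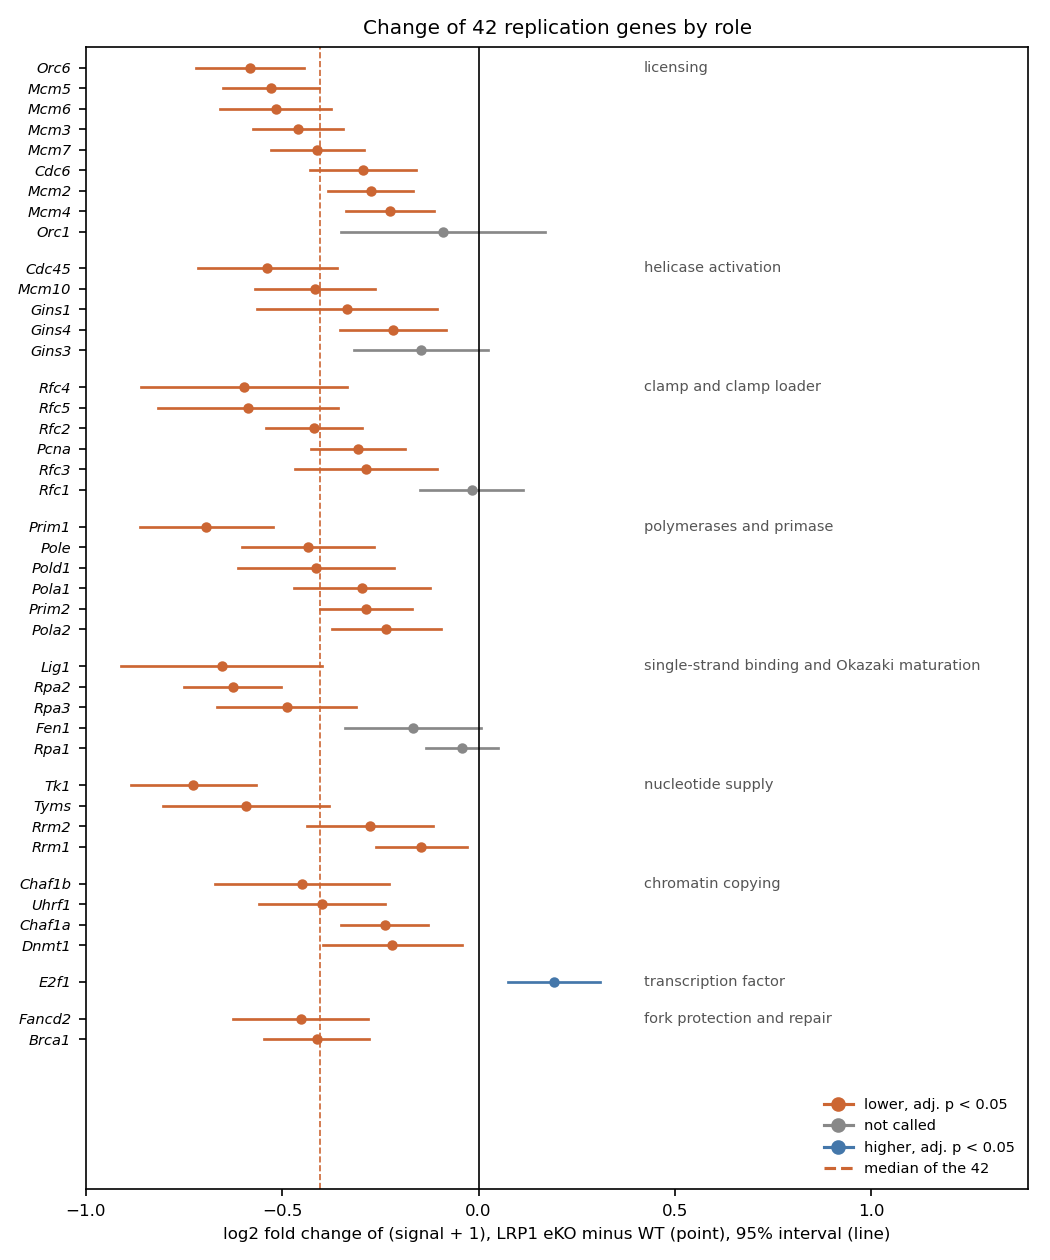
Log2 fold change of (signal + 1) with its 95% limma interval for the 42 genes tested, grouped by role and ordered by change, with the dashed line at their median of -0.41. The 36 genes called lower and E2f1, called higher, have intervals that leave out 0, and the 5 genes in grey were not called.

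Of the licensing genes, 8 of 9 tested were downregulated, beside 22.2% of all genes tested, with a median log2 fold change of -0.41. Mcm5, a subunit of the ring helicase (chr8:75109468-75128439), showed 9.13, 9.13, 9.30 and 9.87 in the WT libraries, replicates 1 to 4 in order, and 6.39, 5.71, 6.28 and 6.36 in those of LRP1 eKO. All 4 LRP1 eKO libraries were below all 4 WT libraries, with replicate 2 the lowest. Its log2 fold change was -0.53 (95% interval -0.65 to -0.41, limma adjusted p = 7.4e-05). Orc6, the smallest subunit of the origin recognition complex (chr8:85299632-85308279), had the largest change of this group. Its signals were 24.4, 24.4, 23.1 and 27.6 in WT and 15.7, 15.7, 17.3 and 16.4 in LRP1 eKO libraries. The groups were far apart, and WT replicate 4 was the highest library. The log2 fold change of Orc6 was -0.58 (95% interval -0.72 to -0.45, limma adjusted p = 8.2e-05). For Mcm5, Orc6 and each of the other genes given below by library, an exact two-sided permutation test gave p = 0.029, the smallest that 4 libraries against 4 allow. These genes were picked by adjusted p, size or direction of change in the same data, so that this p adds no separate evidence. Groups without overlap give the same p, and 22.5% of all genes tested had them in the lower and 20.0% in the higher direction.

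The other ring subunits were downregulated by unequal amounts. Log2 fold changes were -0.52 for Mcm6, -0.46 for Mcm3, -0.41 for Mcm7, -0.28 for Mcm2 and -0.23 for Mcm4, all called by limma with adjusted p between 0.00011 and 0.0063 and none with overlapping groups. The log2 ratio of Mcm5 to Mcm4 ran from -0.91 to -0.63 in WT and from -1.26 to -1.08 in LRP1 eKO libraries, a difference of -0.36. This ratio and the other ratios between subunits below were chosen after their values were seen and are given without a test. Cdc6, the ATPase that helps to load the ring, was called at -0.30 (limma adjusted p = 0.0040). Orc1, the ATPase subunit of the origin recognition complex, was not called, at -0.09 (95% interval -0.35 to 0.17, limma adjusted p = 0.56), and its signals ran from 1.41 to 1.69 in WT and from 0.886 to 1.74 in LRP1 eKO libraries, the wider of the ranges being in LRP1 eKO.

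Among the genes that switch the loaded helicase on, 4 of 5 tested were downregulated, beside 22.2% of all genes tested. Their median log2 fold change was -0.34. Cdc45, which joins the ring in the active helicase (chr16:18780447-18811972), had signals of 4.74, 4.76, 4.68 and 5.86 in WT and 3.41, 2.89, 2.92 and 3.31 in LRP1 eKO libraries. WT replicate 4 stood above the other WT libraries, and every LRP1 eKO library was below every WT library. Cdc45 had a log2 fold change of -0.54 (95% interval -0.72 to -0.36, limma adjusted p = 6.3e-04). Mcm10, a scaffold at the starting fork, was called at -0.42 (limma adjusted p = 0.0012). Of the GINS subunits, Gins1 was called at -0.34 (adjusted p = 0.026) and Gins4 at -0.22 (adjusted p = 0.018) by limma, and Gins3 was not called, at -0.15 (95% interval -0.32 to 0.02, adjusted p = 0.15). Without LRP1 eKO replicate 2 or 4, Gins1 was no longer called, with limma adjusted p between 0.050 and 0.070 over the settings that ended its call.

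All 6 polymerase and primase genes were downregulated, beside 22.2% of all genes tested, with a median log2 fold change of -0.36. Prim1, the catalytic primase subunit that makes the RNA primer (chr10:128015215-128030030), had both the smallest adjusted p and the largest change of them. Its signals were 6.72, 6.23, 6.19 and 7.56 in WT and 3.68, 3.57, 3.50 and 4.22 in LRP1 eKO libraries. The highest LRP1 eKO library was well below the lowest WT library, with LRP1 eKO at 56.1% of the WT level on average. For Prim1 the log2 fold change was -0.69 (95% interval -0.86 to -0.52, limma adjusted p = 1.1e-04). Prim2, the other primase subunit, was called at -0.29 (95% interval -0.40 to -0.17, limma adjusted p = 0.0022), an interval that does not reach that of Prim1. Pole and Pold1, the catalytic subunits of the leading and lagging strand polymerases, were called at -0.44 and -0.42 (limma adjusted p = 0.0016 and 0.0050). Pola1 and Pola2, of the polymerase that extends the primer, were called at -0.30 and -0.24 (limma adjusted p = 0.013 and 0.014).

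**Figure D2:**
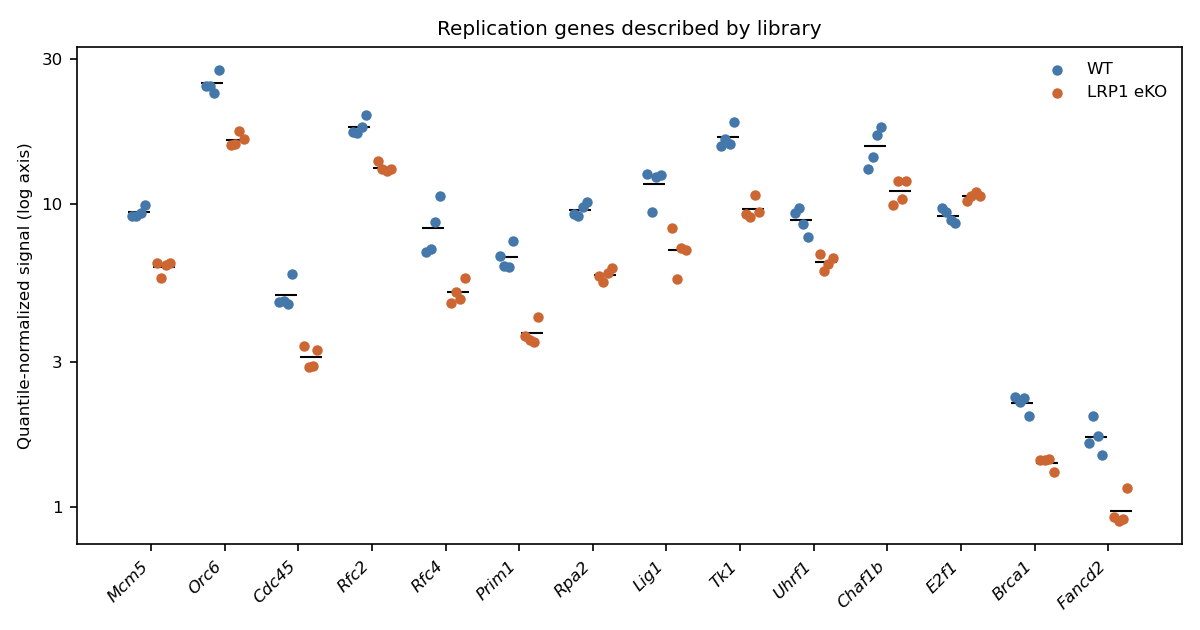
Quantile-normalized signal (log axis) of the 14 genes given by library, with 1 point for each of the 4 WT and 4 LRP1 eKO libraries and a line at each mean. In 13 genes every LRP1 eKO point lies below every WT point, and in E2f1 every LRP1 eKO point lies above.

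Pcna, the clamp, and 4 of the 5 subunits of its loader were downregulated, beside 22.2% of all genes tested. The median log2 fold change of the clamp and loader, 6 genes, was -0.36. Rfc2, a small loader subunit (chr5:134582690-134598328), had signals of 17.2, 17.1, 17.9 and 19.6 in WT and 13.8, 13.0, 12.8 and 13.0 in LRP1 eKO libraries. The LRP1 eKO libraries lay close together and below all WT libraries (log2 fold change -0.42, 95% interval -0.54 to -0.30, limma adjusted p = 3.4e-04). Rfc4, another small subunit (chr16:23113948-23127730), had signals of 6.92, 7.09, 8.69 and 10.6 in WT and 4.73, 5.13, 4.86 and 5.69 in LRP1 eKO libraries. The WT libraries were spread more widely than the LRP1 eKO libraries, without overlap (log2 fold change -0.60, 95% interval -0.86 to -0.34, limma adjusted p = 0.0032). Rfc5, Rfc3 and Pcna were called at -0.59, -0.29 and -0.31 (limma adjusted p = 0.0017, 0.018 and 0.0016), and the signal of Pcna went from 53.7 ± 2.58 in WT to 43.2 ± 2.37 in LRP1 eKO (SD, n = 4 each). Rfc3 lost its call without LRP1 eKO replicate 4 (limma adjusted p = 0.054).

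Rfc1, the large subunit of the loader, was not called. Its mean signal was 10.4 ± 0.655 for WT against 10.3 ± 0.465 for LRP1 eKO (SD, n = 4 each), with overlapping groups (log2 fold change -0.02, 95% interval -0.15 to 0.11, limma adjusted p = 0.82). The log2 ratio to Rfc1 was lower in every LRP1 eKO than in every WT library for Rfc2 (0.67 to 1.06 in WT and 0.30 to 0.41 in LRP1 eKO), Rfc4 (-0.63 to 0.17 and -1.20 to -0.78) and Rfc5 (-0.66 to 0.02 and -1.06 to -0.86). For Rfc3 the ratio overlapped (-0.83 to -0.28 and -1.10 to -0.81).

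The single-strand binding complex RPA also had subunits with unequal values. Rpa2, the middle subunit (chr4:132768360-132778746), had the smallest adjusted p of the whole set. Its signals were 9.27, 9.07, 9.78 and 10.1 in WT and 5.76, 5.53, 5.93 and 6.15 in LRP1 eKO libraries, with a wide gap between the groups. The log2 fold change was -0.63 (95% interval -0.75 to -0.50, limma adjusted p = 2.6e-05). Rpa3, the small subunit, was called at -0.49 (limma adjusted p = 0.0011). Rpa1, the large DNA-binding subunit, was not called, with a mean signal of 42.1 ± 1.06 for WT against 40.9 ± 1.17 for LRP1 eKO (SD, n = 4 each; log2 fold change -0.04, 95% interval -0.14 to 0.05, limma adjusted p = 0.42). The log2 ratio of Rpa2 to Rpa1 ran from -2.23 to -2.09 in WT and from -2.93 to -2.68 in LRP1 eKO libraries, a difference of -0.67. For Rpa3 to Rpa1 the ranges were -1.55 to -1.21 and -2.0 to -1.82.

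**Figure D3:**
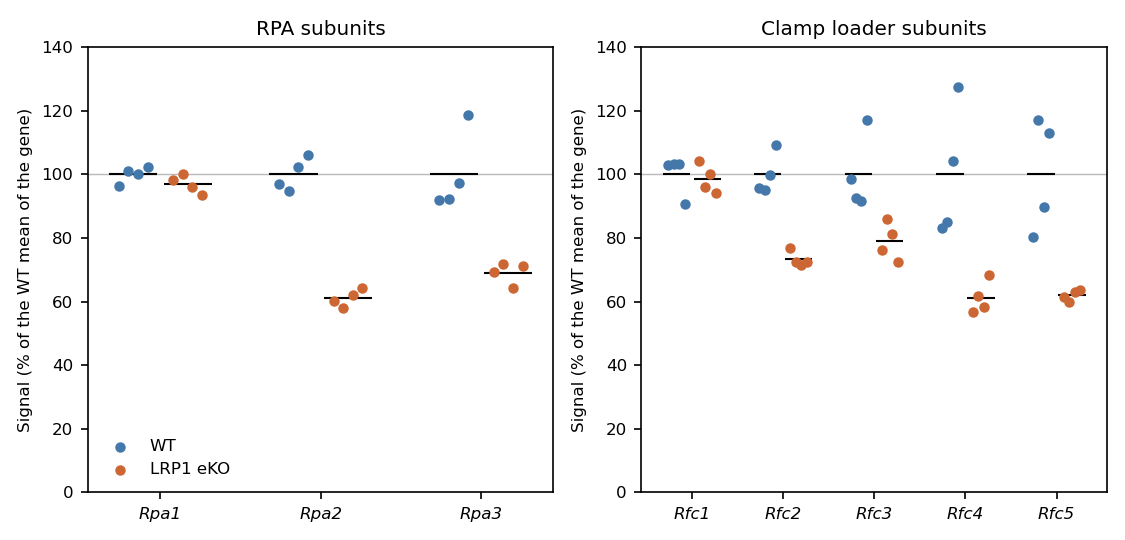
Signal of each subunit as a percent of its own WT mean, for RPA on the left and the clamp loader on the right, with 1 point for each library (4 WT, 4 LRP1 eKO) and a line at each mean. The LRP1 eKO means of Rpa1 and Rfc1 stand at 97.0% and 98.6%, while those of Rpa2 and Rfc4 stand at 61.1% and 61.2%.

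In the processing of lagging strand fragments, Lig1, the ligase that seals them (chr7:13277175-13311426), had signals of 12.5, 9.37, 12.2 and 12.5 in WT and 8.31, 5.67, 7.15 and 7.06 in LRP1 eKO libraries. WT replicate 2 and LRP1 eKO replicate 2 were the lowest of their groups, and the groups did not overlap. Lig1 had a log2 fold change of -0.65 (95% interval -0.91 to -0.40, limma adjusted p = 0.0017). Fen1, the nuclease that trims the flap before ligation, was not called, at -0.17 (95% interval -0.34 to 0.01, limma adjusted p = 0.11), with 6.54 to 7.78 in WT and 5.42 to 6.94 in LRP1 eKO libraries. It was called when LRP1 eKO replicate 2 was left out, with limma adjusted p between 0.029 and 0.039 over the 3 settings that gave a call.

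The nucleotide supply genes, 4 of 4 tested, were downregulated, beside 22.2% of all genes tested, with a median log2 fold change of -0.43. Tk1, thymidine kinase of the salvage route (chr11:117815519-117826087), had the largest change of the set on this scale. Its signals were 15.5, 16.3, 15.8 and 18.6 in WT and 9.27, 9.03, 10.7 and 9.41 in LRP1 eKO libraries. Every LRP1 eKO library was below every WT library, with LRP1 eKO at 58.0% of the WT level on average. Tk1 had a log2 fold change of -0.73 (95% interval -0.89 to -0.57, limma adjusted p = 5.1e-05). Tyms, which makes thymidylate from deoxyuridylate, was called at -0.59 (limma adjusted p = 0.0010). The ribonucleotide reductase subunits had smaller values. Rrm2, the subunit that varies with the cell cycle, was called at -0.28 (limma adjusted p = 0.013), and Rrm1, the large catalytic subunit, at -0.15 with overlapping groups (limma adjusted p = 0.046). Rrm1 lost its call in 10 of 18 alternative settings, 7 of which left out 1 library, with limma adjusted p between 0.053 and 0.12.

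The genes that copy chromatin and its DNA methylation onto the new strands were all called lower, 4 of 4, beside 22.2% of all genes tested. Their median log2 fold change was -0.32. Uhrf1, which reads hemimethylated DNA (chr17:56303337-56323486), had signals of 9.31, 9.69, 8.56 and 7.78 in WT and 6.82, 6.01, 6.35 and 6.61 in LRP1 eKO libraries. WT replicate 4 was the WT library nearest to the LRP1 eKO libraries, all of which were lower (log2 fold change -0.40, 95% interval -0.56 to -0.24, limma adjusted p = 0.0020). Chaf1b, a subunit of the histone chaperone that deposits nucleosomes behind the fork (chr16:93883900-93906115), had signals of 13.0, 14.3, 16.8 and 17.9 in WT and 9.92, 11.8, 10.4 and 11.9 in LRP1 eKO libraries. The groups did not overlap, with the smallest gap between WT replicate 1 and LRP1 eKO replicate 4 (log2 fold change -0.45, 95% interval -0.67 to -0.23, limma adjusted p = 0.0060). Chaf1a was called at -0.24 (limma adjusted p = 0.0042). Dnmt1, the maintenance DNA methyltransferase that Uhrf1 recruits, was called at -0.22 with overlapping groups (limma adjusted p = 0.049), and lost its call in 9 of 18 settings (limma adjusted p between 0.052 and 0.13), 7 of which left out 1 library.

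E2f1, a transcription factor that activates S phase genes (chr2:154559400-154569892), was the only gene of the set that was upregulated. Its signals were 9.67, 9.40, 8.82 and 8.66 in WT and 10.2, 10.6, 10.9 and 10.6 in LRP1 eKO libraries. All LRP1 eKO libraries were above all WT libraries by a small margin, with an average of 116% of the WT level. On the log2 scale E2f1 rose by 0.19 (95% interval 0.08 to 0.31, limma adjusted p = 0.016). Without LRP1 eKO replicate 3 the call was lost (log2 fold change 0.18, limma adjusted p = 0.051).

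Of the fork protection genes, Brca1 and Fancd2 were downregulated, and Brca2 did not pass the filter. Brca1, which acts in recombination repair and protects stalled forks (chr11:101488761-101551955), had signals of 2.30, 2.22, 2.29 and 2.00 in WT and 1.43, 1.44, 1.44 and 1.31 in LRP1 eKO libraries. The lowest WT library stayed well above the highest LRP1 eKO library (log2 fold change -0.41, 95% interval -0.55 to -0.28, limma adjusted p = 6.1e-04). Fancd2, of the Fanconi anaemia pathway of crosslink repair (chr6:113531640-113597020), had signals of 1.63, 2.00, 1.72 and 1.49 in WT and 0.933, 0.899, 0.919 and 1.16 in LRP1 eKO libraries. LRP1 eKO replicate 4 was the highest of its group and still below every WT library (log2 fold change -0.45, 95% interval -0.63 to -0.28, limma adjusted p = 0.0014). No other LRP1 eKO library reached a signal of 1 for Fancd2. It was therefore tested only because its WT signals passed the filter, which limits what its call can show. Brca2, which acts in recombination repair, had signals from 0.439 to 0.631 in WT and from 0.431 to 0.497 in LRP1 eKO libraries and was not called in a limma fit without the filter (log2 fold change -0.08, adjusted p = 0.18).

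Gene coordinates above are RefSeq extents on GRCm38.p6. Exons of 14 of the 43 genes overlap exons of a gene on the opposite strand in GENCODE M21, and the strand setting of the counting is not stated in the sources used here. Among the genes given by library these pairs were Orc6 with Vps35, Cdc45 with Ufd1, Rfc2 with Lat2, Rfc4 with Eif4a2, Lig1 with Zswim9, Tk1 with Afmid and Fancd2 with Fancd2os, and reads of such a pair may be shared. Libraries also differed in how often they set the range. WT replicate 4 was the highest or lowest WT library in 35 of the 42 genes, and the other WT libraries in 14 to 18. Without both WT replicate 4 and LRP1 eKO replicate 2, the median log2 fold change of the set was -0.37.

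Genes that act with the set but are not in it were counted from lists of the same pathways. Of 42 other replication factors, 37 were tested, and limma called 24 lower and 0 higher, with a median log2 fold change of -0.24. The share called lower was 64.9%, beside 22.2% of all genes tested, and the 0 called higher stand beside 19.0%. The 2 with the smallest adjusted p were Dtymk, thymidylate kinase, at -0.56 (adjusted p = 1.5e-04) and the histone chaperone Nasp at -0.54 (adjusted p = 2.8e-04). Of 13 replication checkpoint genes, 4 were called lower and 0 higher, with a median of -0.15, and their share called lower, 30.8%, was near the 22.2% of all genes tested. The fork protection partner of Timeless, Tipin, was called at -0.39 (adjusted p = 4.3e-04), and the kinase Chek1 at -0.48 (adjusted p = 5.1e-04).

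Of the other E2F and Rb family genes, 10 were tested, and limma called 4 lower and 0 higher, beside 22.2% and 19.0% of all genes tested, with a median log2 fold change of -0.17. E2f8 and E2f7, the atypical E2Fs that repress S phase genes, were called at -0.41 (adjusted p = 0.0048) and -0.32 (adjusted p = 0.0081), the opposite direction to E2f1. In this list, as in the replication factor and checkpoint lists, 0 genes were higher at an unadjusted limma p under 0.05. Without the share of all genes at that threshold, these counts are descriptions only. Of 12 tested repair and translesion polymerase genes, 3 were called lower and 1 higher, with a median of -0.12. At 25.0% lower this list was near the 22.2% of all genes tested, and for higher calls 1 of 12 is set beside 19.0%. Mad2l2, a subunit of polymerase zeta, was called at -0.41 (adjusted p = 0.010) and Poll, a polymerase of break repair, at -0.27 (adjusted p = 0.018). Polg, the polymerase of mitochondrial DNA, was called higher at 0.17 (adjusted p = 0.040), with overlapping groups.

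All 25 genes of a mitosis list were called lower by limma, beside 22.2% of all genes tested, 6 of them past 2-fold. Their median log2 fold change was -0.84, with a range from -1.14 to -0.40. Cenpf, counted among them, ran from 1.83 to 3.34 in WT and from 0.809 to 1.29 in LRP1 eKO libraries. It passed the filter only because of its WT signals, which limits what its call can show. Ccnb2, a mitotic cyclin, went from 20.9 ± 0.566 in WT to 9.06 ± 0.615 in LRP1 eKO (signal, SD, n = 4 each; log2 fold change -1.12, limma adjusted p = 6.6e-07). Ccnb1, the main mitotic cyclin, went from 28.3 ± 1.94 to 12.4 ± 0.721 (signal, SD, n = 4 each; log2 fold change -1.13, limma adjusted p = 1.5e-06). The range of the mitosis genes overlaps that of the replication genes, in which Tk1, Prim1 and Lig1 lay at -0.73, -0.69 and -0.65, and the difference between the lists was not tested.

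**Figure D4:**
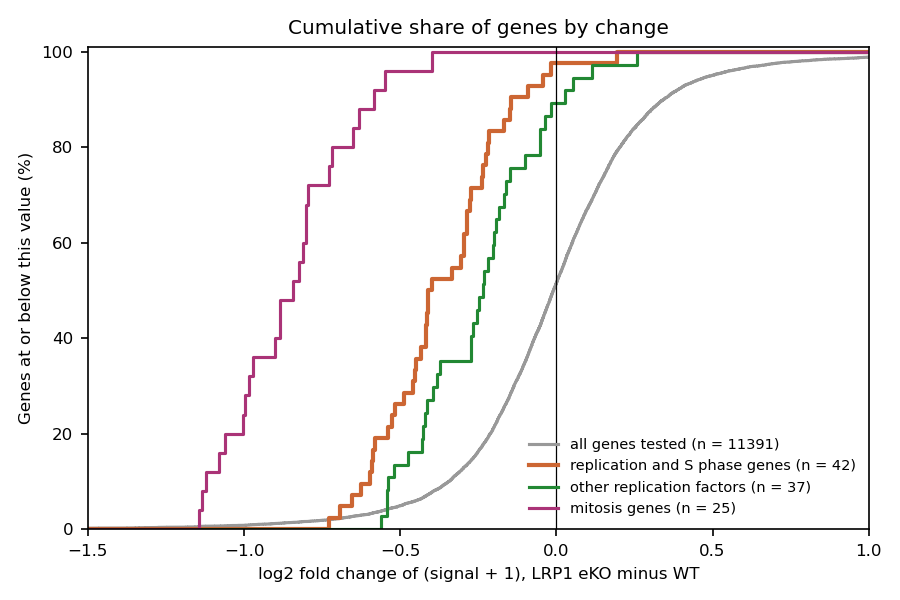
Cumulative percent of genes at or below each log2 fold change of (signal + 1), for all 11391 genes tested, the 42 replication and S phase genes, 37 other replication factors and 25 mitosis genes. The medians are -0.01, -0.41, -0.24 and -0.84 in that order, and all mitosis genes lie to the left of 0.

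Among markers of other cell types, the summed signals of the hepatocyte and skeletal muscle lists did not overlap between the genotypes, and their part in the values above was not tested. The summed signal of 10 pan-endothelial markers was 49.1 to 51.7 in WT and 58.1 to 81.8 in LRP1 eKO libraries, also without overlap. For 8 liver sinusoidal endothelial markers the sums overlapped, at 8.95 to 12.9 and 10.2 to 34.8. The 10 hepatocyte markers summed to 1450 to 1514 in WT and 602 to 886 in LRP1 eKO libraries, with Apob, Cyp3a11 and Tat under 1. The 12 macrophage markers overlapped, with sums of 113 to 222 and of 52.8 to 734 and with Clec4f and Timd4 under 1. LRP1 eKO replicate 2 had the lowest sum of all libraries for the macrophage, hepatocyte, stellate cell and fibroblast, erythroid and cholangiocyte lists. It was not the lowest for the other lists. In this library the mean log2(signal + 1) of the 42 replication genes was 3.02, beside 3.05 to 3.07 in the other LRP1 eKO libraries. A link between marker sums and this mean was not tested. Stellate cell and fibroblast markers (10) summed to 2031 to 2344 and 1774 to 2236, with Lrat and Reln under 1, and erythroid markers (9 in the table) to 24.9 to 46.9 and 14.7 to 24.9, with 5 under 1. Skeletal muscle markers (6 in the table) summed to 31.7 to 53.7 and 5.73 to 7.20, with Ckm and Myh3 under 1, cholangiocyte markers (5) to 301 to 356 and 233 to 696, with Epcam under 1, and neutrophil markers (7) to 0.735 to 1.84 and 1.5 to 3.62, with 6 under 1. All 7 B cell and all 7 T and NK cell markers were under 1 in every library.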

How the data were processed

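RNA of liver cells, isolated by the authors as ECs, was prepared with TruSeq kits and sequenced as WT (n = 4) and LRP1 eKO (n = 4) libraries. The number of mice behind them is not given in the sources used here. The authors deposited 1 table of quantile-normalized signal for 22520 genes, which is not counts. The submitters' processing notes name TopHat2, Cufflinks and mm10, and the paper's methods name STAR, featureCounts with GENCODE, and edgeR. Which of these made the table, and its unit before normalization, are not given in the sources used here. Quantile normalization removes any shift of all genes together, and each library lists 6186 to 6621 genes at 0. Depth is unknown, so no counting error was computed.

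log2(signal + 1) was fitted with limma 3.58.1 (R 4.3.3), by genotype alone with a mean-variance trend, on genes that reached 1 in 4 or more libraries, and p-values were adjusted over all 11391 by Benjamini-Hochberg. In a simulation of this comparison on 11323 genes, 199 of 200 genes changed by -1 (log2) were recovered, with false calls at 6 of the 11123 others. The changed genes were drawn from those with a mean log2(signal + 1) above 2. The largest change of a replication gene was smaller, at -0.73. The simulation therefore does not measure recovery of changes of that size or at lower signal. The members and lists were chosen with earlier results of these data known, and counts over them are descriptions. Values by library are given for the gene of each role with the smallest adjusted p and that with the largest change, and for any called in the other direction. Each pathway list is represented by the 2 genes of smallest adjusted p and any called higher. Rfc1, Rpa1 and the ratios between subunits were singled out after their values were seen. No pairing of the libraries by replicate number was seen, and the main fit used none. In all, 18 alternatives were run. Promoters came from RefSeq (GRCm38.p6) and exon overlaps from GENCODE M21. Figures were drawn with matplotlib 3.10.9.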

Additional observations from a re-analysis of the deposited data

Results flagged for a closer look

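Of 90 groups of 4 libraries examined, 11 had 1 library whose gap to the nearest other, divided by the range of the group, was above Dixon's 95% critical value for 4 samples, where chance gives about 1 in 20, or 4.5. In WT, replicate 4 was the library apart in 7 of them. It was the highest for Cdc45 (gap over range 0.93), Gins3 (0.852) and Gins4 (0.841), and the lowest for Rfc1 (0.976), Pola1 (0.958), Rrm2 (0.859) and Dnmt1 (0.945). Its signal was 5.86 for Cdc45, with 4.68 to 4.76 in the other WT libraries, and 11.4 for Dnmt1, with 14.1 to 14.2 in the others. For Rfc1 it was 9.41, with 10.7 in each of the other WT libraries. WT replicate 2 was the lowest for Lig1 (0.898), at 9.37 with 12.2 to 12.5 in the others. In LRP1 eKO, replicate 2 was the lowest for Mcm5 (0.843), and replicate 4 was the lowest for Brca1 (0.929) and the highest for Fancd2 (0.87).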

How the results depend on the processing

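With a minimum mean signal of 5, 32 of the replication genes were tested and limma called 28 lower. Over the other 17 alternatives it called 32 to 37 lower, 32 to 36 with 1 library left out. Their median log2 fold change ran from -0.41 to -0.37 with 1 library left out. It was -0.368 with array weights, -0.445 and -0.21 with pseudocounts of 0.1 and 5, and -0.373 without WT replicate 4 and LRP1 eKO replicate 2. The count of replication genes called higher was 0 to 1 with 1 library left out, 0 without LRP1 eKO replicate 3. With libraries left out, Orc1 ranged from -0.184 to 0.021 (above 0 without LRP1 eKO replicate 3) and Rfc1 from -0.061 to 0.002 (above 0 without LRP1 eKO replicate 4), never called. Other replication factors called lower were 15 with a minimum mean of 5, which tests fewer genes, and 18 to 22 with 1 library left out. Genes past 2-fold among all tested were 149 higher and 166 lower with a pseudocount of 0.1, 40 higher and 26 lower with 5, 63 higher with a minimum mean of 5, 152 higher without both libraries, and 75 to 105 lower and 81 to 163 higher with 1 library left out, the 163 without LRP1 eKO replicate 2. The cause was not tested. Same-numbered libraries deviated with correlations from -0.13 to 0.18 and 0 of 8 correlated best with their own number. No pairing by number was seen, although 4 libraries a group are too few to exclude a weak one. With the replicate block 34 replication genes were called lower. Centring moved the median of all genes from -0.009 to -0.013. Precision rests on 4 libraries a group.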
